A study of Hirudo medicinalis with 12 samples.

Results

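The transcripts described here are the 200 single-contig components of the leech nerve cord assembly that stayed abundant in every library sequenced. A contig is an assembled sequence, and a component is a group of contigs that the assembly kept together. Of 58593 components, 48935 held a single contig, and 5856 of those had counts in all 12 libraries. For each single-contig component the lowest value over the 12 libraries was taken in CPM, the count scaled to a common library total, and the 200 components with the highest lowest value form the set. Because the rule read these same levels, the levels and their spread are given as a description and not as a test. The adult medicinal leeches (Hirudo medicinalis) received no treatment that the labels name and were kept in tanks at 16 °C. RNA came from single positions of the ganglia chain: ganglion 2 (libraries 1, 4 and 7), ganglion 10 (libraries 2, 5, 8, 10, 11 and 12) and ganglion 19 (libraries 3, 6 and 9). The series names 3 leeches for the 12 libraries without saying which library came from which. If no other leech was used, libraries share animals, and the 6 ganglion 10 libraries cannot each come from a different animal. Every n counts libraries and not animals, and a p-value here rests on the spread of libraries alone. The series title asks how position along the chain relates to gene function.

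A leech ganglion packs the neurons, giant glial cells and neuropil of a body segment into a small capsule, and the same plan recurs along the chain. RNA that is abundant in every sample of such tissue usually includes ribosomal and mitochondrial transcripts, cytoskeletal proteins such as tubulin and actin, and parts of the translation and energy machinery. The identifiers carry no gene name and no sequence was used here, so which members belong to these classes was not analysed here. Contig lengths were not used here either. A CPM value therefore ranks a member by its reads and not by its molecules, and a long transcript enters the set more easily than a short one. In bulk RNA a change in the number of cells that make a transcript cannot be told apart from a change in RNA per cell.

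The core was a large part of each library, and its level was far from constant. The 200 members together held between 30.0% (libraries 7 and 12) and 58.2% (library 3) of all counts. The share was 37.9% ± 9.57 for ganglion 2 (mean ± SD, n = 3). For ganglion 10 it was 35.3% ± 4.85 (n = 6), and ganglion 19 reached 45.5% ± 11.0 (n = 3). The ranges of the 3 ganglia overlapped. A single member, comp10_c0_seq1, supplied 36.2% of library 3, 14.4% of library 2 and 13.6% of library 9. With that contig taken out of both the members and the totals, the core held between 28.2% and 47.8% of the remaining counts, and the upper value was library 1. The share was then 37.6% ± 9.22 for ganglion 2, 33.4% ± 4.01 for ganglion 10 and 32.7% ± 3.93 for ganglion 19. The mean of ganglion 19, the highest with the contig, was the lowest without it.

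**Figure D1:**
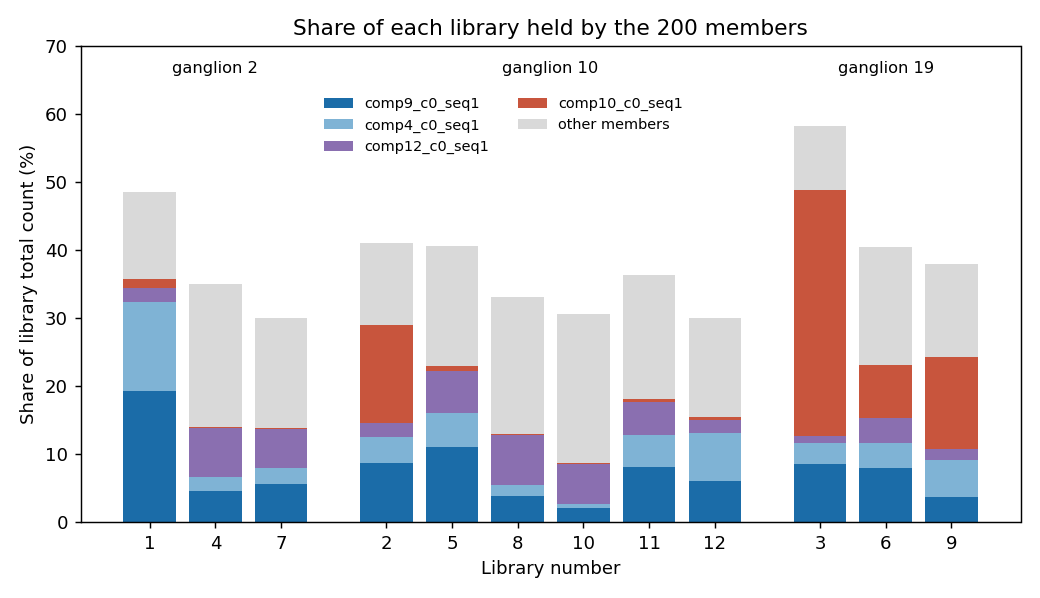
Stacked bars give the share of the total count of each library (percent) held by 4 leading members and by all other members, with libraries ordered by ganglion. The bar of library 3 reaches 58.2%, and comp10_c0_seq1 alone makes up 36.2% of that library.

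The lowest CPM of the members ran from 45.2 to 20255, with a median of 77.4, and their median CPM over the libraries ran from 68.0 to 69659, with a median of 259. Counts were ample for each of them. The smallest count of any member in any library was 333, and counting error at each member's lowest count had a median of 0.0516 on the log2 scale, against a median SD between libraries of 0.79. At the edge of the rule, comp16732_c0_seq1 and comp5075_c0_seq1 were the last members, with lowest values of 45.3 and 45.2 CPM. comp1795_c0_seq1 and comp9158_c0_seq1 were the first left out, both at 45.04 CPM in library 3.

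The highest level of a member exceeded its lowest by a median of 5.97-fold. Only comp7090_c0_seq1 stayed within 2-fold (1.85-fold), while 154 of the 200 spanned more than 4-fold, 48 more than 10-fold and 13 more than 20-fold. The SD of log2 CPM over the 12 libraries had a median of 0.79 in the core. It was 1.52 over the 5856 single-contig components with counts in every library, and 1.27 over the 636 non-members whose median CPM was at least that of the lowest member. A rule that keeps the highest minimum prefers low spread, so this order follows from the choice.

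**Figure D2:**
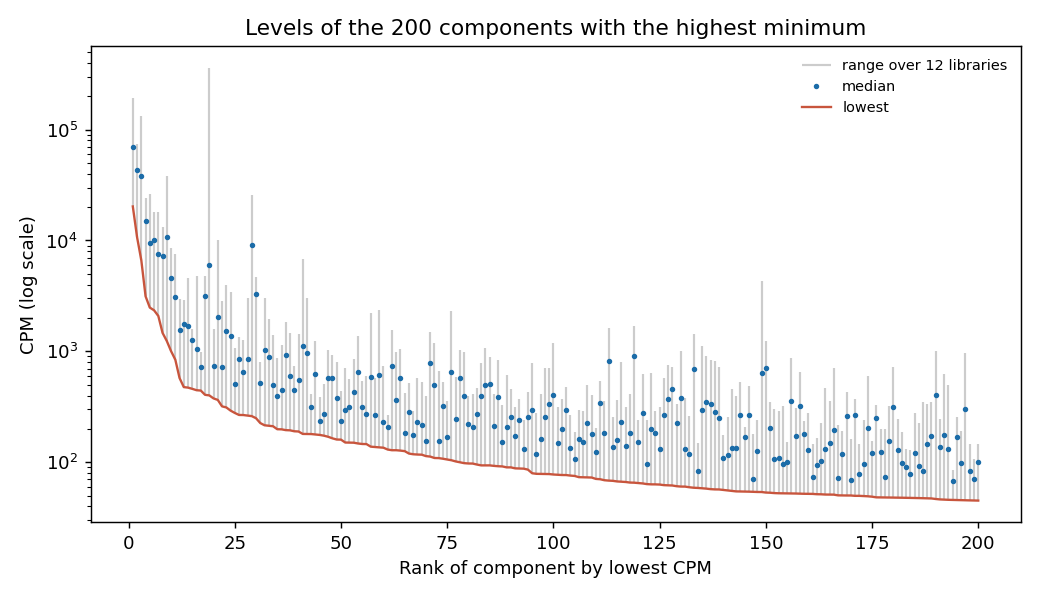
Each grey line spans the lowest to the highest CPM of a member over the 12 libraries (log scale), ordered by the rank of its lowest value; the points are medians and the line joins the lowest values. The lowest values fall from 20255 to 45.2 CPM, while the ranges above them reach 362008 CPM for the component at rank 19, comp10_c0_seq1.

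**Figure D3:**
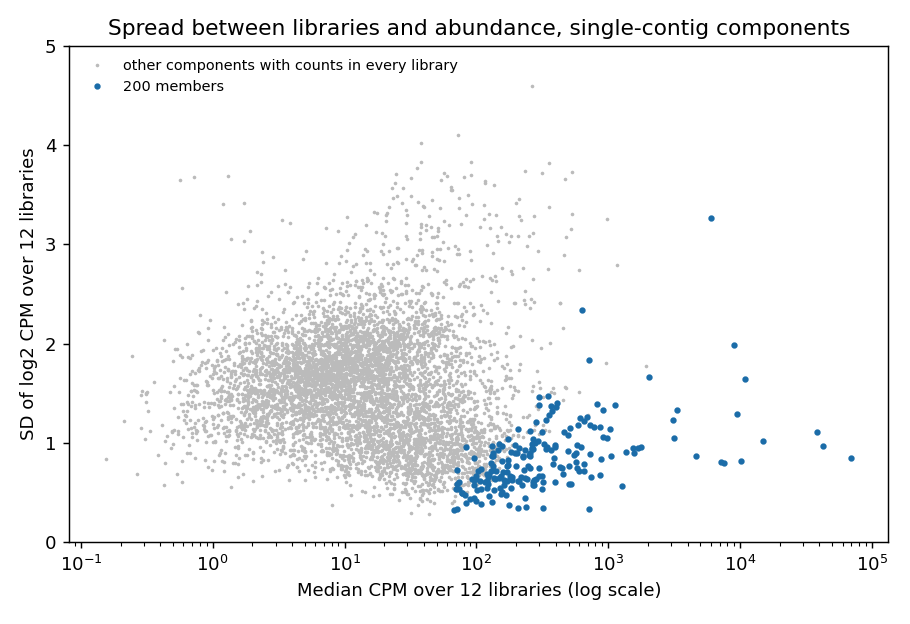
The SD of log2 CPM over the 12 libraries is plotted against the median CPM (log scale) for members and for the other single-contig components with counts in every library. Members lie low and to the right, with a median SD of 0.79 against 1.52 over all components shown.

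The members with the highest minimum were also among the largest in each library. comp9_c0_seq1 held 192199, 46189 and 55731 CPM in libraries 1, 4 and 7 of ganglion 2. In ganglion 10 its lowest, median and highest values were 20255, 70412 and 110641 CPM, and in libraries 3, 6 and 9 of ganglion 19 it held 85952, 79045 and 36898 CPM. Library 1 stood far above the other libraries and library 10 far below, and the 3 ganglia overlapped. comp4_c0_seq1 had the same extremes, 131296 CPM in library 1 and 6626 CPM in library 10.

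comp12_c0_seq1 followed another order. It held 20753, 71904 and 57484 CPM in ganglion 2, and 10707, 37156 and 15215 CPM in ganglion 19. In ganglion 10 it ran from 18980 to 74369 CPM. Its low libraries were 1, 2, 3, 9 and 12, taken from all 3 ganglia. comp44_c0_seq1 was low in the same 5 libraries, at 3140 to 9338 CPM against 13564 to 24366 CPM elsewhere. The ratio of comp12_c0_seq1 to comp44_c0_seq1, which no scaling of libraries can alter, ran only from 2.03 to 4.65, while that of comp27_c0_seq1 to comp9_c0_seq1 ran from 0.0120 in library 1 to 1.88 in library 10. comp27_c1_seq1, the last of the 5 members with the highest minimum, ran from 2482 CPM in library 3 to 26275 CPM in library 4.

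The members with the smallest spread included the least abundant of the core, where the rule leaves little room below the median. comp7090_c0_seq1, whose median of 68.0 CPM was the lowest of all members, had the smallest spread (SD of log2 CPM 0.32), with 69.8 ± 19.8 CPM for ganglion 2 (mean ± SD, n = 3), 69.3 ± 14.8 CPM for ganglion 10 (n = 6) and 58.7 ± 6.38 CPM for ganglion 19 (n = 3). comp16732_c0_seq1 came next (SD of log2 CPM 0.34), at 63.8 ± 19.3, 79.3 ± 17.4 and 65.5 ± 11.3 CPM in the same order. comp611_c0_seq1 combined low spread (SD of log2 CPM 0.34) with a higher level, 662 ± 116, 728 ± 186 and 713 ± 196 CPM. The ganglion means of each of these members lay within the spread of libraries on the scale of total counts.

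The least steady member was comp10_c0_seq1 (SD of log2 CPM 3.27), which spanned 903-fold. It held 12757, 687 and 401 CPM in libraries 1, 4 and 7 of ganglion 2. In ganglion 10 the 6 libraries held 143718 (library 2), 7972, 1507, 1903, 4073 and 4087 CPM, and in ganglion 19 libraries 3, 6 and 9 held 362008, 77729 and 135612 CPM. Every ganglion 19 library was above every ganglion 2 library and above 5 of the 6 ganglion 10 libraries, and library 2 was the exception. The fitted log2 fold change of ganglion 19 against ganglion 10 was 3.50 (SE 1.36, edgeR adjusted p = 0.197). Without library 2 it was 6.55 (SE 1.13) and passed (edgeR adjusted p = 0.0190), and over all alternatives the adjusted p ran from 0.0190 to 0.593.

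comp242_c0_seq1 and comp14_c0_seq1 followed in spread (SD of log2 CPM 2.34 and 1.99), with patterns of their own. comp242_c0_seq1 held 53.9, 1766 and 867 CPM in ganglion 2. In ganglion 10 it held 77.5 and 83.3 CPM in libraries 2 and 5, and 1590, 3953, 4277 and 3757 CPM in libraries 8, 10, 11 and 12. In ganglion 19 it held 204, 242 and 406 CPM. The low libraries 1, 2 and 5 belong to ganglia 2 and 10. comp14_c0_seq1 was lowest in library 1 (261 CPM) and library 8 (640.1 CPM), and all other libraries held 3250.0 CPM or more.

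**Figure D4:**
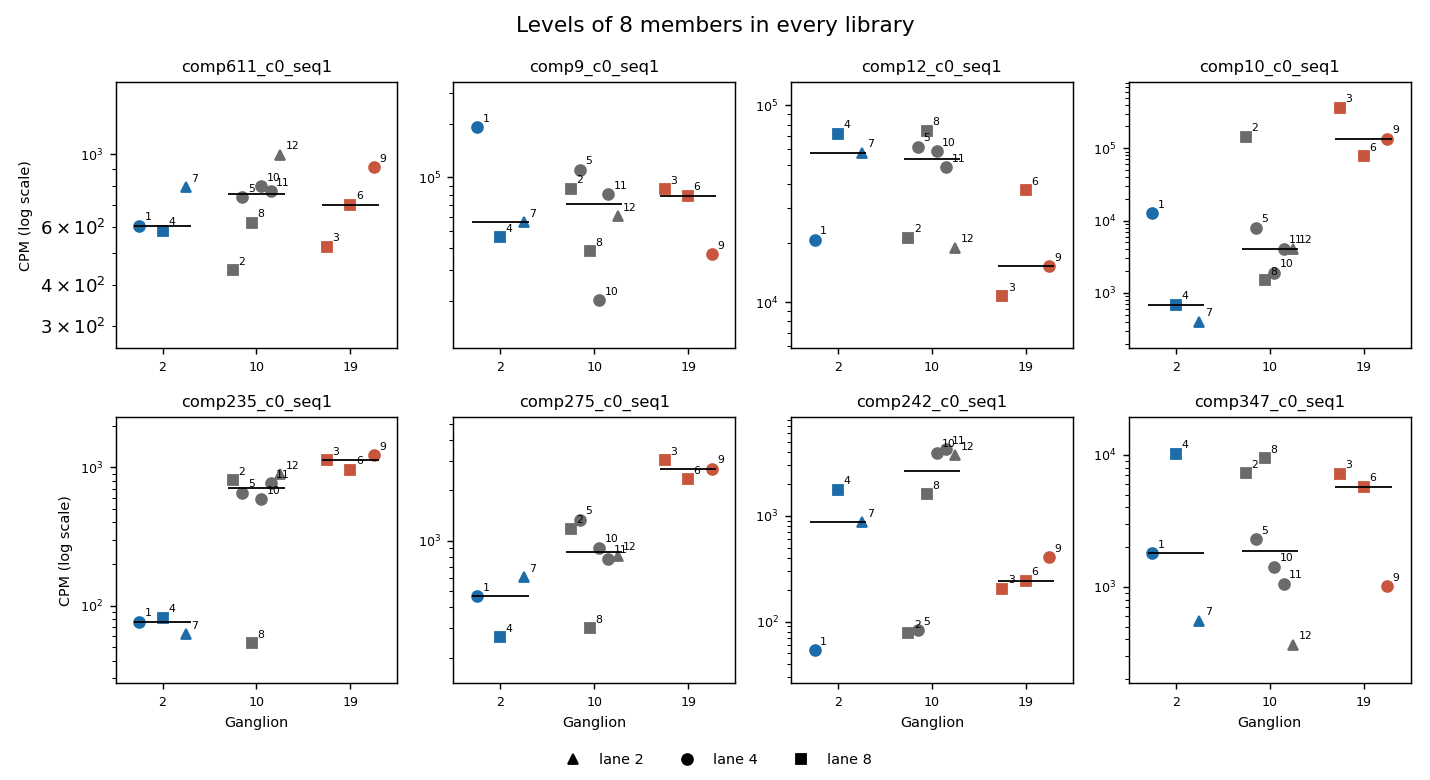
CPM (log scale) of 8 members in each library by ganglion, with symbols for the sequencing lane, library numbers beside the points and a bar at the median of each ganglion. comp611_c0_seq1 is level, comp10_c0_seq1 spans 903-fold, comp235_c0_seq1 is low in ganglion 2 and in library 8, and comp347_c0_seq1 falls into separate bands by lane.

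No member passed the test for a difference between ganglia in the fit of all 41445 contigs that passed the count filter, of which all 200 members were part. This asks which of the shared abundant transcripts change along the chain. edgeR's quasi-likelihood test with Benjamini-Hochberg adjustment over all contigs called 0 of 200 members in ganglion 10 against ganglion 2 (background 0% of contigs), 0 in ganglion 19 against ganglion 10 (background 0.041%), 0 in ganglion 19 against ganglion 2 (background 0%) and 0 in the joint test of the 3 ganglia (background 0.0507%). At an unadjusted p under 0.05 the members numbered 24 (12%, background 9.77%), 22 (11%, background 19.6%), 16 (8%, background 18.4%) and 18 (9%, background 17.8%) in the same order. DESeq2 called 0 members for ganglion 10 against 2 (background 1.96%), 4 for ganglion 19 against 10 (2%, background 10.5%), 2 for ganglion 19 against 2 (1%, background 7.75%) and 0 in the joint test (background 2.81%). It gave no adjusted p for 9 members in each pairwise comparison and in the joint test. Over all contigs it gave none for 9483, 3183, 7938 and 10257 in the same order, and the background shares still divide by all 41445. The rule favours members with little spread, so these shares are a description, and the pairwise comparisons share libraries with each other.

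The middle of the core depended on the scaling of libraries. On TMM-scaled counts the median fitted log2 fold change over members was -0.52 for ganglion 10 against 2 (36 of 200 above 0), against 0.37 over all contigs. With library totals alone it was -0.01, against 0.53 over all contigs, and with upper quartile scaling -1.13, against 0.20. Without library 1, whose TMM factor was the lowest at 0.436, it was -0.02. For ganglion 19 against 10 the median was 0.37 with TMM (142 of 200 above 0), -0.14 with library totals and 0.51 with upper quartile scaling, against -0.46, -0.91 and -0.36 over all contigs. For ganglion 19 against 2 it was -0.23, -0.15 and -0.72, against -0.21, -0.37 and -0.41, and it was 0.42 without library 1. No direction for the core as a whole held over these settings between ganglia 19 and 10, and between the other pairs the removal of library 1 brought the value near 0 or turned it.

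Among single members, comp235_c0_seq1 had the smallest p of those higher in ganglion 19 than in ganglion 2, and also of those higher in ganglion 10 than in ganglion 2. It held 76.3, 81.6 and 62.3 CPM in libraries 1, 4 and 7 of ganglion 2. In ganglion 10 it held 808, 655, 589, 773 and 894 CPM in libraries 2, 5, 10, 11 and 12, but 53.4 CPM in library 8. In ganglion 19 it held 1130.0, 963 and 1230.2 CPM. Ganglion 2 and ganglion 19 did not overlap, and library 8 lay at the level of ganglion 2. The log2 fold change was 3.87 for ganglion 19 against 2 (SE 0.88, edgeR adjusted p = 0.236) and 2.40 for ganglion 10 against 2 (SE 0.77, edgeR adjusted p = 0.472), and neither passed. The value for ganglia 19 and 2 ran from 3.32 to 4.602 over the alternatives, with adjusted p from 0.0100 in DESeq2 to 0.458 with the lane as a term. For ganglion 10 against 2 the adjusted p ran from 0.126 to 0.811.

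comp275_c0_seq1 had the smallest p of those higher in ganglion 19 than in ganglion 10. It held 3018, 2328 and 2694 CPM in ganglion 19, above every other library. In ganglion 10 its lowest value was 298 CPM in library 8, its median 859 CPM and its highest 1333 CPM, and in ganglion 2 it held 465, 264 and 604 CPM. The log2 fold change against ganglion 10 was 2.27 (SE 0.56, edgeR adjusted p = 0.196), within a range of 1.61 to 2.51 over the alternatives and adjusted p from 0.0373 in DESeq2 to 0.418 in libraries 1 to 9. In the joint test comp275_c0_seq1 and comp235_c0_seq1 both had an edgeR adjusted p of 0.201. The adjusted p was 0.0140 and 0.0249 without a count filter. In libraries 1 to 9 both were highest, with 0.474 for comp235_c0_seq1. The 4 members that DESeq2 called for ganglion 19 against 10, all higher in ganglion 19, were comp244_c0_seq1, comp392_c0_seq1, comp98_c0_seq1 and comp275_c0_seq1. The 2 it called for ganglion 19 against 2, both higher, were comp14_c0_seq1 and comp235_c0_seq1. In 3 of the first 4, comp244_c0_seq1, comp392_c0_seq1 and comp98_c0_seq1, library 9 held the highest level of all libraries, 6800.04 CPM, 3010.2 CPM and 2835 CPM.

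Of the members with the smallest p on the lower side, a pair rested on few libraries. Between ganglia 19 and 10 this was comp242_c0_seq1 (log2 fold change -2.36, SE 1.07, edgeR adjusted p = 0.233), whose ganglion 10 libraries lay on both sides of ganglion 19, and in libraries 1 to 9 the value was -0.63 (over the alternatives, adjusted p ran from 0.155 to 0.975). Between ganglia 19 and 2 it was comp739_c0_seq1, with 666, 1188 and 471 CPM in ganglion 19 and 1657, 3381 and 1735 CPM in ganglion 2, which did not overlap (log2 fold change -1.49, SE 0.58, edgeR adjusted p = 0.236). Ganglion 10 held 1345 to 4565 CPM of it. Its adjusted p ran from 0.186 to 0.999 over the alternatives. Between ganglia 10 and 2 it was comp1219_c0_seq1, at 801, 280.1 and 154 CPM in ganglion 2 and 133 to 411 CPM in ganglion 10 (log2 fold change -2.09, SE 0.70, edgeR adjusted p = 0.472). Without library 1 that value was -0.05, and the adjusted p ran from 0.118 to 1 over the alternatives.

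A minority of members separated the ganglia library by library, with shares above or below the background depending on the direction and the scaling. On library totals, 7 of 200 members were higher in every ganglion 19 library than in any ganglion 10 library (3.5%, background 0.861%) and 5 were lower (2.5%, background 9.6%). With TMM scaling the numbers were 26 higher (13%, background 1.68%) and 2 lower (1%, background 7.72%). Upper quartile scaling gave 28 higher (14%, background 2.03%) and 0 lower (background 7.3%). Between ganglia 19 and 2, 13 were higher (6.5%, background 2.73%) and 13 lower (6.5%, background 3.79%) on totals. The numbers were 13 (background 3.61%) and 17 (8.5%, background 4.04%) with TMM, and 7 (3.5%, background 3.3%) and 20 (10%, background 4.66%) with upper quartile scaling. With no difference between ganglia, 3 against 3 libraries also separate fully at times. The shares between ganglia 19 and 2 were therefore not read as an excess among members. Between ganglia 10 and 2, 0 were higher under each scaling (background 3.68% on totals, 3.42% with TMM and 3.1% with upper quartile). On totals 1 was lower (0.5%, background 0.302%), and 5 were lower with TMM (2.5%, background 0.487%) and with upper quartile scaling (2.5%, background 0.782%). Of these members, comp6018_c0_seq1 and comp3545_c0_seq1 had the largest part of their log2 variance between ganglia on totals, 83.8% and 81.6%, and were singled out after their values were seen. comp6018_c0_seq1 held 177, 279 and 328 CPM in ganglion 2, 192 to 306 CPM in ganglion 10 and 79.0, 108 and 48.3 CPM in ganglion 19. comp3545_c0_seq1 held 145 ± 14.9 CPM for ganglion 2 (mean ± SD, n = 3), 122 ± 28.9 CPM for ganglion 10 (n = 6) and 55.0 ± 5.18 CPM for ganglion 19 (n = 3). Both were low in all 3 libraries of ganglion 19, with no overlap on totals. With TMM scaling their shares were 70.9% and 55.1%, below the highest share of a member, 79.1%. For the core as a whole the ganglion took a median of 13.7% of the log2 variance of a member on library totals. With TMM scaling the median was 19.8%. With no difference between groups, 3 groups of 12 libraries take a mean of 18.2%. A mean is not directly comparable with a median, so the medians were not read as above or below it. Over all contigs tested the medians were 22.9% and 22.1%.

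One member followed the sequencing lane and not the ganglion. comp347_c0_seq1 held 7272, 7198, 10159, 5722 and 9432 CPM in libraries 2, 3, 4, 6 and 8, all of lane 8. It held 1789, 2285, 1011, 1419 and 1054 CPM in libraries 1, 5, 9, 10 and 11 of lane 4, and 553 and 365 CPM in libraries 7 and 12 of lane 2. The 3 lanes did not overlap, and the libraries of each ganglion lay in more than 1 of these bands. Lane took 94.7% of its log2 variance and the ganglion 3.74%, and the lane share was the highest among all 41445 contigs tested on library totals. With TMM scaling it was 87.1%, the highest among members, where the highest over all contigs was 91.95%. In 7 of the 41445 contigs (0.0169%) the 3 lanes were fully separate, and comp347_c0_seq1 was the only member among them. The contig was singled out after its values were seen, and what it is was not analysed here. Over all members, lane took a median of 15.0% of the variance on library totals, against 12.4% over all contigs, and 13.2% against 13.0% with TMM scaling.

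Members were grouped by their levels across libraries. The number of groups was a setting of the method, so groups arise whatever the data. Levels were set relative to the median member of each library, so that a library-wide shift drops out, and the members were divided into 4 groups by Ward clustering of these values. The groups were formed from the levels they describe and were not tested. The largest group had 120 members, with comp224_c0_seq1 and comp611_c0_seq1 at its head. Taken library by library, the median over its members stayed between -0.37 (library 8) and 0.35 (library 1) log2 units of the member means. Single members varied more than these medians. The SD of log2 CPM had a median of 0.66 in this group, and its comp244_c0_seq1 ran from 180 to 6800 CPM. A group of 47 members with comp12_c0_seq1, comp44_c0_seq1 and both comp27 contigs was highest in library 8 (median 1.05 above its mean) and lowest in library 9 (-1.14). Its median over ganglion 19 was -0.66, set largely by library 9: library 6 stood at -0.20 and library 3 at -0.55, while library 1 of ganglion 2 (-0.59) and library 2 of ganglion 10 (-0.53) were as low, so the ganglia overlapped.

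A group of 21 members led by comp10_c0_seq1, with comp275_c0_seq1 and comp14_c0_seq1 in it, was highest in library 3 (1.52), library 2 (1.11) and library 9 (0.88) and lowest in libraries 4 and 10 (-0.91 and -0.90). The smallest group, 12 members with comp9_c0_seq1, comp4_c0_seq1 and both comp13 contigs, was highest in library 1 (1.61) and lowest in library 10 (-2.12). These 12 included the most closely matched pair of the whole core. comp7685_c0_seq1 and comp8380_c0_seq1 kept a count ratio between 1.38 and 2.08 in all 12 libraries, and the SD of their log2 ratio, 0.19, was the smallest of 19900 pairs, where the median was 1.05. comp15017_c0_seq1 and comp144439_c0_seq1 of the same group kept a ratio between 3.72 and 6.03.

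**Figure D5:**
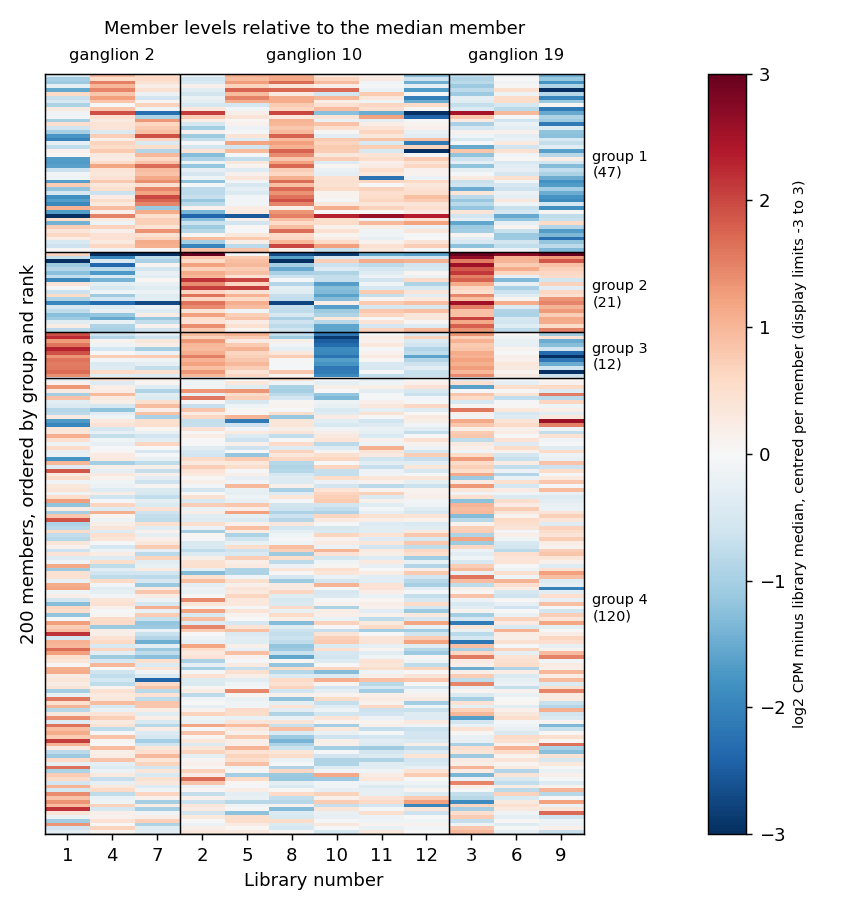
Colour gives the log2 CPM of each of the 200 members relative to the median member of the library and centred on the member's own mean, with libraries ordered by ganglion and members by group. The group of 12 is high in library 1 and low in library 10, the group of 21 is high in libraries 2, 3 and 9, and the group of 120 varies least.

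The order of the members was kept from library to library to an uneven degree. Members share their libraries and do not count as replicates, so Spearman's rank correlation across the 200 members is a description. Its median was 0.743 over 15 pairs within ganglion 10, 0.659 over 3 pairs within ganglion 19 and 0.595 over 3 pairs within ganglion 2. Within ganglion 10, libraries 10, 11 and 12, which alone hold fractional counts, gave 0.878, 0.856 and 0.914 among themselves. Libraries 2, 5 and 8 gave 0.837, 0.532 and 0.701. For libraries 10 to 12 the kind of count and the ganglion cannot be told apart. Between ganglia 2 and 10 the median was 0.726, between 10 and 19 it was 0.719 and between 2 and 19 it was 0.553. The closest pair of all joined library 7 of ganglion 2 and library 8 of ganglion 10 (0.924). Libraries 11 and 12 of ganglion 10 followed at 0.914. Library 8 ranged from 0.497 to 0.924 with the ganglion 2 libraries and from 0.532 to 0.820 with the other ganglion 10 libraries. Libraries 1 and 3 were the least alike (0.436).

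Libraries 1 and 3 set most of the boundary of the core. Library 3 held the lowest value of 72 members and library 1 that of 40. Their TMM factors of 0.557 and 0.436 were the lowest of the 12, the others ranging from 0.907 to 1.458. Library 1 had counts for the fewest single-contig components, 15037, followed by library 3 with 16460. Libraries 4 and 7 of ganglion 2 had 27303 and 27671, and libraries 6 and 9 of ganglion 19 had 25234 and 19415. Every ganglion 10 library had more, from 30777 to 34885. The background shares over all contigs were not adjusted for this difference, and its cause was not tested. Of the 200 components with the highest median CPM, 121 were members. Of the 79 that were not, 65 were lowest in library 1 or 3, 41 had a lowest value under 10 CPM and 1 had no counts in some library. Ranked within each library among single-contig components, which no scaling alters, between 82 and 121 members stood in the first 200. Only 29 members did so in every library, and 71 stood in the first 500 in every library.

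The choice was also repeated with libraries left out. The core itself was chosen from all 12 libraries, so these other lists are a description and no check of the core. The lowest level of a choice depends on whether libraries 1 and 3 are part of it. When the 200 components were chosen from the other 11 libraries, 68 of them fell below the lowest level of the choice in library 1 and 63 in library 3, while 0 to 7 did in each of the remaining 10 libraries. None of the 200 was without counts in the library left out, but 15 lay below 0.1 times that level in library 1. Chosen from the 6 libraries of ganglion 10 alone, where the lowest level was 93.6 CPM, 70 fell below it in library 1, 77 in library 3 and 6 to 27 in libraries 4, 6, 7 and 9. Of them, 17 in library 1 lay below 0.1 times that level, and 1 was without counts in each of libraries 1 and 9. Chosen from ganglia 2 and 19, where it was 47.9 CPM, 1 to 6 fell below it in each ganglion 10 library.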

How the data were processed

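RNA of single leech ganglia was sequenced in 12 libraries. The deposited counts for 76845 contigs are whole numbers in libraries 1 to 9, and those of libraries 10 to 12 are expected counts as deposited, partly fractional, which were rounded for the tests only. FastQC, RSEM, TopHat and Cufflinks are the tools in the submitters' processing notes, with no roles or versions; no source used here gives the assembler. Library totals ran from 6436783 to 19110631. CPM uses these totals unless TMM is named. Contigs passed filterByExpr of edgeR 4.0.16 (minimum count 10), leaving 41445, and all 12 libraries entered a quasi-likelihood fit with ganglion as the only factor, TMM scaling and Benjamini-Hochberg adjustment over all contigs (threshold 0.05). Standard errors were derived from the F statistic. Log2 CPM used a prior count of 2. The fit was tested on simulated data, with changes set in contigs drawn at random from all contigs tested. Large increases were called more often than large decreases, most of which were not called. The members were not simulated by themselves, so how many changes would be called among them is not known. A count of 0 calls does not show that levels were alike. Alternatives were DESeq2 1.42.0, other scalings and filters, the lane as a term and leaving out libraries. The members, lists and tests were chosen with earlier results of these data known. Members were named by a rule: the 5 highest minima, the 3 smallest and 3 largest spreads, the smallest p in each direction of each comparison, and those beside the threshold. The members called by DESeq2, comp347_c0_seq1, comp3545_c0_seq1, comp6018_c0_seq1, the pattern groups and the ratios were chosen after their values were seen. Chi-square per degree of freedom between libraries of a ganglion was at least 38.2, so no such pair agreed within counting error; this does not show separate animals or RNA. Computations used R 4.3.3, Python 3.11.15, numpy 2.4.6, pandas 2.3.3 and scipy 1.17.1.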

Additional observations from a re-analysis of the deposited data

Results flagged for a closer look

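Among 23 reported values tested within the 6 libraries of ganglion 10, 3 had a library far from the others. Chance flags about 1 in 20 groups. That rate is no measure for these values, since they share libraries and some were named for a large spread or a small p. Library 2 stood far above the others in comp10_c0_seq1, at 143718 CPM against 1507 to 7972 CPM. Library 8 stood far below in comp235_c0_seq1, at 53.4 CPM against 589 to 894 CPM. Library 8 also had fewest members among the 200 most abundant single-contig components, 82 against 101 to 108. Over all 200 members, 10 (5%) had such a library in ganglion 10.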

How the results depend on the processing

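No paired analysis was possible because the libraries of the 3 ganglia share no replicate number and the labels do not name the leech. The call of no members in the fit of all libraries changed in 3 settings: DESeq2 called 4 for ganglion 19 against 10 and 2 for ganglion 19 against 2, the joint test called 5 without a filter (2.5%, against 2.02% of all contigs), and without library 2 ganglion 19 against 10 and the joint test called 1 each, comp10_c0_seq1 (0.5%, against 0.145% and 0.28% of all contigs). Leaving out a library otherwise gave 0 calls in these 4 tests. Membership kept 152 of the 200 with TMM-scaled CPM, 141 with upper quartile scaled CPM and 143 by the second lowest CPM. It kept 121 by the median CPM, 109 with components of any number of contigs summed and 130 without libraries 1 and 3. From ganglion 10 alone it kept 127, and without single libraries 142 to 200. Every alternative without libraries 1 and 3, without comp10_c0_seq1 or from chosen ganglia was added after seeing the data. The median SD of log2 CPM was 0.79, but 1.00 with upper quartile scaling and 0.68 without libraries 1 and 3, and it ran from 0.74 to 0.82 without single libraries. The median difference in mean log2 CPM for ganglion 10 against 2 was 0.02 on totals, -0.46 with TMM and -0.85 with upper quartile scaling, and from -0.09 to 0.15 without single libraries. Between ganglia 19 and 10 it was -0.26, 0.32 and 0.46, and from -0.44 to 0.15 without single libraries. Between ganglia 19 and 2 it was -0.19 and ran from -0.40 to 0.16 without single libraries. Within lane 4 these medians were 0.55 (3 libraries against 1), 0.06 (1 against 3) and 0.42 (1 against 1). Within lane 8 they were -0.42 (2 against 1), -0.13 (2 against 2) and -0.54 (2 against 1). Lane 2 gave 0.05 for ganglion 10 against 2 (1 against 1) and held no ganglion 19 library. Lane and single libraries cannot be told apart. Members whose libraries did not overlap numbered 1 for ganglion 10 against 2 (lower, background 0.302%) and 5 with TMM or upper quartile scaling (all lower, background 0.487% and 0.782%). Ganglion 19 against 10 gave 12, of which 7 were higher (background 0.861%) and 5 lower (9.6%). With TMM 28 were counted, 26 higher (1.68%) and 2 lower (7.72%), and upper quartile scaling gave 28, all higher (2.03%). The cause of these shifts was not tested. For the log2 fold changes of members named for a comparison, no alternative turned the direction.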

Other observations

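In 4 cases a pair of members carried the same component number, and the counts within some pairs were equal. comp360_c0_seq1 and comp360_c1_seq1 had the same count in libraries 1, 3, 4, 5, 9 and 10 (2034 each in library 1 and 3939 each in library 9), and 2258 and 2259 in library 2. In library 8 they held 8827 and 1594 counts, and in library 7 they held 10747 and 4383. comp398_c0_seq1 and comp398_c1_seq1 were equal in 7 libraries, but held 1945 and 10768 counts in library 9 and 7690 and 3216 in library 7. How reads were shared within these pairs was not tested, and the level of each of the 4 contigs is uncertain. comp13_c1_seq1 and comp13_c0_seq1 were never equal and kept a ratio of 0.871 to 1.55.

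Fractional counts were common in the core. Of the 200 members, 175 (87.5%) had a fractional count in each of libraries 10, 11 and 12, against 492 of 636 (77.4%) non-members with a median CPM at least that of the lowest member. No member had values identical to another contig in all 12 libraries. Members carried low component numbers: 171 (85.5%) were below 5000, against 387 of those 636 non-members (60.8%) and 1.87% of all single-contig components.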
